A study of Mus musculus with 6 samples.

Results

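The 10 genes described here are used to tell neural stem cells and astrocytes from other brain cells, and they were read out in 6 RNA libraries of sorted mouse ependymal cells. They were chosen by name, as a list of 10 symbols out of the 47643 genes in each file, and each symbol matched 1 row. The list holds the intermediate filament genes Gfap, Vim and Nes, the surface protein genes Prom1 and Cd24a, the glutamate transporter genes Slc1a2 and Slc1a3, the cytosolic protein genes Fabp7 and Aldh1l1, and the secreted protein gene Thbs4. Adult mice had been given tamoxifen 2 days before their ventricular-subventricular zone was taken. In both genotypes the recombination switched on GFP in ependymal cells, which were then sorted by GFP, and in the conditional knockout (cKO) it also deleted Ccn1. There were 3 cKO and 3 control libraries, and the labels call the RNA both total and cytoplasmic. The sources used here do not give the driver of the recombinase, the reporter allele, the strain, the exact age, or whether mice were pooled. Nothing in the labels says that the samples came from separate animals, so the p-values measure the spread between these samples, which may be technical.

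Ependymal cells are the ciliated cells of the ventricle wall, and they surround the astrocyte-like neural stem cells that reach the ventricle between them. Both cell types descend from radial glia, which carry nestin, vimentin, BLBP (the product of Fabp7) and GLAST (the product of Slc1a3). Sorting schemes for stem cells of this region therefore combine several markers, because prominin-1 and CD24 are also found on ependymal cells, and GFAP and GLAST also on parenchymal astrocytes. In a bulk library, fewer cells of a type and less RNA per cell cannot be told apart.

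The promoters of Vim, Gfap and Prom1 are shown because these genes gave the steadiest level, the widest spread of the 5 abundant markers, and the largest difference between genotypes. Each line holds the 250 bases before the RefSeq start site on GRCm38.p6, 5′ to 3′ on the gene's strand. Capitals mark 3 short promoter motifs, searched on both strands, and a match on the other strand is printed as its reverse complement. The TATA box was searched as TATAAA. The letters CCAAT were searched for the box of that name, and GGGCGG for the GC box. No match overlapped another.
Vim chr2:13574061-13574310, plus strand: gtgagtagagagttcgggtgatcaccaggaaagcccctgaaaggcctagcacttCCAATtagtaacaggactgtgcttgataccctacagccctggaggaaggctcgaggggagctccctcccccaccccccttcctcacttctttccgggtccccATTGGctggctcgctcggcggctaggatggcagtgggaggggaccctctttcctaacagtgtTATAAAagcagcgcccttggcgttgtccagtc
Gfap chr11:102897201-102897450, minus strand: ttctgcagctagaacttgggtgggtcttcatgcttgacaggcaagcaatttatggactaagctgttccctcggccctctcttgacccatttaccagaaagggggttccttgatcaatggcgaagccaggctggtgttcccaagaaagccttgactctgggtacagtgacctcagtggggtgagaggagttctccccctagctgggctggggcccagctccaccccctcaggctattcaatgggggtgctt
Prom1 chr5:44101737-44101986, minus strand: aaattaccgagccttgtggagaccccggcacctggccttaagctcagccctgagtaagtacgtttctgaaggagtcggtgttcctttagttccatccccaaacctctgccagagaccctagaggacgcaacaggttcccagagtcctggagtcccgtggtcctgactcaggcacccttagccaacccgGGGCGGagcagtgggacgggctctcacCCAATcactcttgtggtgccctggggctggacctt
The Vim window held a TATA box 32 bases before the start and 2 CCAAT boxes, 94 and 196 bases before it. The Gfap window held none of the 3 motifs. The Prom1 window held a GC box 62 bases and a CCAAT box 35 bases before its start. A second RefSeq start of Prom1 is not shown. Of all 32851 windows in the table, 12.4% held a TATA box, 33.8% a CCAAT box and 32.7% a GC box. These matches describe the letters only.

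The libraries held 13401499 to 15689579 estimated counts. Ccn1, the targeted gene (listed under its older symbol Cyr61), went with the labels in every library, at 18.7, 11.6 and 23.7 TPM in the cKO and 63.6, 98.7 and 93.5 TPM in the control (edgeR log2 difference -2.22 ± 0.38 SE, unadjusted p = 0.000415, adjusted p = 0.999992). TPM is a share of all transcripts, a level per transcript length, and can be compared between genes. All 16 ependymal markers of the fixed list reached a tested level, led by Rarres2 and Tmem212. Endothelial markers were nearly absent, with Pecam1, Cldn5 and 4 others of 8 at 0 counts in all 6 libraries. Neurons and the oligodendrocyte lineage were represented by few of their markers. At 0 counts in all 6 were 3 of 10 neuron markers (Rbfox3 among them) and 2 of 11 oligodendrocyte lineage markers (Sox10 among them). Only 2 of the 10 and 4 of the 11 reached a tested level. The most abundant were Ppp1r1b, a neuron marker, which averaged 337 TPM, and Cnp, an oligodendrocyte marker, at 163 TPM. Most others were low, such as Snap25 at 1.51, Gad2 at 0.58, Mobp at 1.74 and Olig1 at 0.42 TPM. A tested level was reached by 6 of 10 microglia, 5 of 8 choroid plexus and 3 of 9 mural and fibroblast markers. Summed, these lists stood at 31.1 to 82.8, 316 to 952 and 326 to 524 TPM. The control 1 library was the lowest of the 6 in the summed list of other astrocyte and stem cell genes (without the 10 markers). It was the highest in summed ependymal markers, though not in each of these markers.

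The libraries of sorted cells held 5 of the 10 markers at a high level. The part of other cell types in these levels was not tested. Cd24a averaged 450 TPM over the 6 libraries, Vim 363, Fabp7 291, Slc1a3 257 and Gfap 182 TPM, which placed them at ranks 339, 441, 565, 649 and 940 among all 47643 genes. Neighbours in this order were not cleanly separated. Cd24a was above Vim in 4 of 6 libraries, Vim above Fabp7 in 5, Fabp7 above Slc1a3 in 4, and Slc1a3 above Gfap in 6, with overlapping ranges in each case. Gfap and Prom1 were the only neighbours whose ranges were apart, since the lowest Gfap library (84.6 TPM) was above the highest Prom1 library (51.5 TPM). Prom1 averaged 32.4 TPM and was above Aldh1l1 (10.05 TPM) in 6 of 6 libraries, though their ranges met. Aldh1l1, Slc1a2 (7.68 TPM) and Nes (5.73 TPM) overlapped in range. Thbs4 was at 0 counts in 4 of 6 libraries. The ependymal cell marker Tmem212 stood at 5007 to 6259 TPM in the same libraries.

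**Figure D1:**
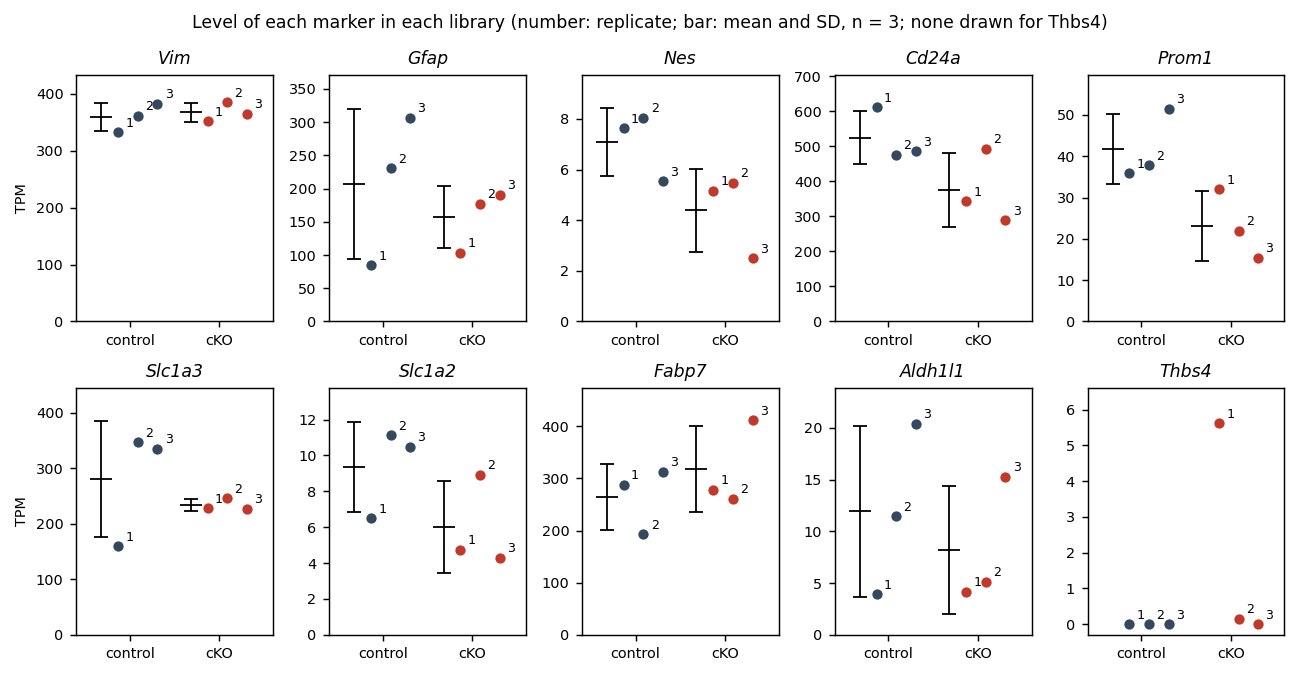
TPM (vertical axis, from 0, a scale of its own in each panel) of the 10 markers in the 3 control (dark) and 3 cKO (red) libraries, with the replicate number beside each point and the mean and SD to the left. Vim lies between 333 and 385 TPM in all 6 libraries, the 3 cKO points of Prom1 lie below the 3 control points, and Thbs4 is above 1 TPM in the cKO 1 library alone.

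The filament genes ran from the very steady Vim to the far lower Nes. Vim (ENSMUSG00000026728.9, chromosome 2 from 13573927 to 13582826 on GRCm38) encodes vimentin, the filament protein of radial glia and ependymal cells. It stood at 352, 385 and 365 TPM in the cKO and at 333, 361 and 382 TPM in the control. The groups overlapped, and the coefficient of variation over the 6 libraries was 5.35%, smaller than for 99.5% of the 3480 tested genes whose mean reached 50 CPM (counts scaled by TMM to a common library size). The edgeR log2 difference was 0.034 ± 0.13 (SE, adjusted p = 0.999992), with a 95% interval from -0.27 to 0.33.

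Gfap (ENSMUSG00000020932.14, chromosome 11 from 102887336 to 102900912) encodes glial fibrillary acidic protein, the filament of astrocytes and adult neural stem cells. It stood at 104, 177 and 191 TPM in the cKO and at 84.6, 230 and 307 TPM in the control. The lowest and the 2 highest values were all controls, and the groups overlapped. Its coefficient of variation was 45.01%, and 16.5% of the same genes had a larger one. Its log2 difference of -0.36 ± 0.42 (SE) had an interval from -1.33 to 0.60 (edgeR adjusted p = 0.999992). It was -0.70 without control 1, 0.011 without control 3, -0.13 without cKO 1 and -0.55 without cKO 3, so its sign rests on the control 3 library.

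Nes (ENSMUSG00000004891.16, chromosome 3 from 87971078 to 87980451) encodes nestin, the filament of neural progenitors. It stood at 5.17, 5.49 and 2.498 TPM in the cKO and at 7.62, 8.04 and 5.54 TPM in the control, so that the highest cKO library was just under the lowest control. In CPM the groups met, with cKO 2 and control 3 both at 27.4 CPM. The log2 difference was -0.71 ± 0.61 (SE, interval from -2.12 to 0.70, edgeR adjusted p = 0.999992). With 1 library left out, it ran from -0.89 (without control 3) to -0.45 (without cKO 3). The ratio of Vim to Nes, both per length, ran from 43.6 in control 1 to 146 in cKO 3.

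Of the other filament and linker genes of a fixed list of 18, 7 reached a tested level. The cKO mean was below the control for 4 of these and above for 3 (median log2 difference -0.059), and edgeR called 0. The most abundant were the epithelial keratin genes Krt18, at 102 ± 38.1 TPM in the cKO and 83.9 ± 12.03 TPM in the control, and Krt8, at 40.03 ± 11.7 and 30.9 ± 8.42 TPM (mean ± SD of 3 libraries each). Dst, which encodes the linker dystonin, had the smallest p of this list and stood at 1.29, 2.40 and 1.31 TPM in the cKO and 3.15, 3.20 and 6.46 TPM in the control (log2 difference -1.13 ± 0.49 SE). The neurofilament genes Nefm and Nefh were at 0 counts in all 6 libraries.

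Of the surface markers, Prom1 showed the largest log2 difference of the 9 tested markers. Prom1 (ENSMUSG00000029086.15, chromosome 5 from 43993620 to 44102032) encodes prominin-1 or CD133, a membrane protein of cilia and microvilli that is used to sort both ependymal cells and stem cells. It stood at 32.1, 21.9 and 15.4 TPM in the cKO and at 35.9, 37.8 and 51.5 TPM in the control. All 3 cKO libraries were below all 3 controls, with a narrow gap between cKO 1 and control 1. On the log2 scale cKO minus control was -0.85 ± 0.34 (SE), with an interval from -1.64 to -0.063. The edgeR unadjusted p was 0.0376 and the adjusted p 0.999992, so the difference did not pass over all 11574 genes tested. DESeq2 (adjusted p = 0.371) and limma-voom (adjusted p = 0.895) did not call it either. The exact two-sided permutation p of its CPM was 0.1, the smallest value that 3 against 3 allows.

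Cd24a (ENSMUSG00000047139.8, chromosome 10 from 43578284 to 43584265) encodes CD24, a small glycoprotein held in the membrane by a lipid anchor and carried by ependymal cells and neuroblasts. It stood at 343, 493 and 290 TPM in the cKO and at 613, 476 and 487 TPM in the control. The cKO 2 library lay among the controls, and control 1 was the highest of the 6. The log2 difference was -0.51 ± 0.23 (SE, interval from -1.05 to 0.035, unadjusted p = 0.0630, edgeR adjusted p = 0.999992). With 1 library left out, it ran from -0.72 (without cKO 2) to -0.30 (without control 1).

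Cd24a also marks neuroblasts, whose genes were low. A fixed list of 17 markers of stem cell activation and neuroblasts summed to 73.0, 72.6 and 153 TPM in the cKO and 108, 164 and 108 TPM in the control, most of it the cyclin gene Ccnd2 at 83.6 ± 47.9 and 94.9 ± 31.9 TPM (mean ± SD of 3 libraries each). Among the 9 tested, the cKO mean was lower for 6 and higher for 3 (median log2 difference -0.26), and edgeR called 0. The next most abundant, Sox11, a neuroblast transcription factor gene, stood at 4.61 ± 0.514 and 6.004 ± 3.96 TPM. Sp8, a transcription factor gene of neuroblasts bound for the olfactory bulb, had the smallest p of this list and a log2 difference of -2.25 ± 2.37 (SE). The part of such cells in the Cd24a values was not tested. Prom2, the paralog of Prom1, was uneven within each genotype, at 229, 118 and 1 counts in cKO 1 to 3 and at 1, 0 and 40 counts in control 1 to 3.

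The glutamate transporters differed by a factor of 24.5 to 52.9 in level per length, with Slc1a3 above Slc1a2 in every library. Slc1a3 (ENSMUSG00000005360.14, chromosome 15 from 8634124 to 8710764) encodes GLAST, the transporter of radial glia and stem cells. It stood at 228, 246 and 227 TPM in the cKO and at 159, 347 and 335 TPM in the control. The cKO libraries were close together and lay between control 1 and the other controls. This gave a log2 difference of -0.21 ± 0.24 (SE, interval from -0.77 to 0.36, edgeR adjusted p = 0.999992), and it was -0.45 without control 1, -0.033 without control 2 and -0.094 without control 3.

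Slc1a2 (ENSMUSG00000005089.15, chromosome 2 from 102658659 to 102790784) encodes GLT-1, the main transporter of mature astrocytes. It stood at 4.75, 8.93 and 4.29 TPM in the cKO and at 6.50, 11.1 and 10.5 TPM in the control. The cKO 2 library was above control 1, so the groups overlapped. Its log2 difference was -0.67 ± 0.37 (SE, interval from -1.52 to 0.19, edgeR adjusted p = 0.999992). With 1 library left out, it ran from -1.01 (without cKO 2) to -0.50 (without cKO 3).

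Of 14 other genes of glutamate and glutamine handling, 9 reached a tested level, with lower cKO values for 6 and higher for 3 (median log2 difference -0.21), and edgeR called 0. The glutamine carrier gene Slc38a1 was the most abundant, at 92.2 ± 25.2 TPM in the cKO and 106 ± 19.9 TPM in the control (mean ± SD of 3 libraries each). Slc38a3, a glutamine carrier gene of astrocytes, stood at 83.4 ± 26.6 and 113 ± 42.6 TPM. The paralog Slc1a4, a neutral amino acid transporter gene, stood at 2.67, 4.80 and 5.57 TPM in the cKO and at 12.5, 12.6 and 12.4 TPM in the control, with no overlap. Its log2 difference was -1.51 ± 0.64 (SE, edgeR unadjusted p = 0.0451, adjusted p = 0.999992), while DESeq2 called it at an adjusted p of 0.0442. DESeq2 called 200 of 11823 genes in all (1.69%).

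Fabp7 was, besides Vim, the only one of the 9 tested markers with a log2 difference above 0. Fabp7 (ENSMUSG00000019874.11, chromosome 10 from 57784881 to 57788450) encodes brain lipid-binding protein, a fatty acid carrier of radial glia. It stood at 279, 261 and 412 TPM in the cKO and at 288, 193 and 313 TPM in the control. The cKO 3 library was the highest, and the other values overlapped. This gave a log2 difference of 0.26 ± 0.32 (SE, interval from -0.48 to 0.99, edgeR adjusted p = 0.999992), and it was -0.010 without cKO 3, 0.049 without control 2, 0.40 without control 1 and 0.41 without cKO 2. The related Fabp5 stood at 150 ± 18.9 TPM in the cKO and 177 ± 72.3 TPM in the control (mean ± SD of 3 libraries each, log2 difference -0.28 ± 0.37 SE), and the other 7 genes of the family list did not exceed 3 counts in any library.

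Aldh1l1 (ENSMUSG00000030088.15, chromosome 6 from 90486427 to 90600203) encodes a folate enzyme and is widely used as an astrocyte marker. It stood at 4.14, 5.12 and 15.3 TPM in the cKO and at 3.94, 11.4 and 20.4 TPM in the control. Each genotype held a library with a high value and a library near 4 TPM. The log2 difference was -0.47 ± 0.88 (SE, interval from -2.50 to 1.56, edgeR adjusted p = 0.999992). It ran from -1.30 without cKO 3 to 0.13 without control 3, and was -0.86 without control 1, -0.22 without cKO 2 and -0.14 without cKO 1. Of 13 other genes of folate metabolism and the ALDH1 family, 6 were tested, with 3 higher and 3 lower in the cKO (median log2 difference -0.32), and edgeR called 0. Mthfd1, a folate enzyme gene, stood at 24.0 ± 6.49 and 18.6 ± 15.4 TPM, and Mthfs, another, at 124 ± 37.8 and 98.2 ± 36.4 TPM (mean ± SD of 3 libraries each). Shmt2, the mitochondrial serine hydroxymethyltransferase gene, had the smallest p of this list and stood at 10.8, 8.01 and 10.9 TPM in the cKO and at 32.9, 13.7 and 13.7 TPM in the control (log2 difference -1.06 ± 0.69 SE, edgeR unadjusted p = 0.163).

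Thbs4 (ENSMUSG00000021702.7, chromosome 13 from 92751590 to 92794818) encodes thrombospondin-4, a secreted matricellular protein made by astrocytes of this region. Its counts were 207, 5 and 0 in the cKO and 0, 0 and 0 in the control, so 1 library carried most of it and it was not tested. A count of 0 allows up to 3 counts in a library, for counting error only. Thbs1 and Thbs3, of the same family, were more evenly spread, with Thbs1 at 5.53 ± 3.604 and 6.14 ± 3.32 TPM and Thbs3 at 8.30 ± 6.90 and 7.53 ± 6.03 TPM in the cKO and the control (mean ± SD of 3 libraries each). By comparison with Thbs4, Nes and Aldh1l1 had at least 180 and 145 counts in every library. Among 2046 tested genes that averaged between 300 and 600 counts, 17.9% fell to 3 counts or fewer somewhere in the 6 libraries.

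**Figure D2:**
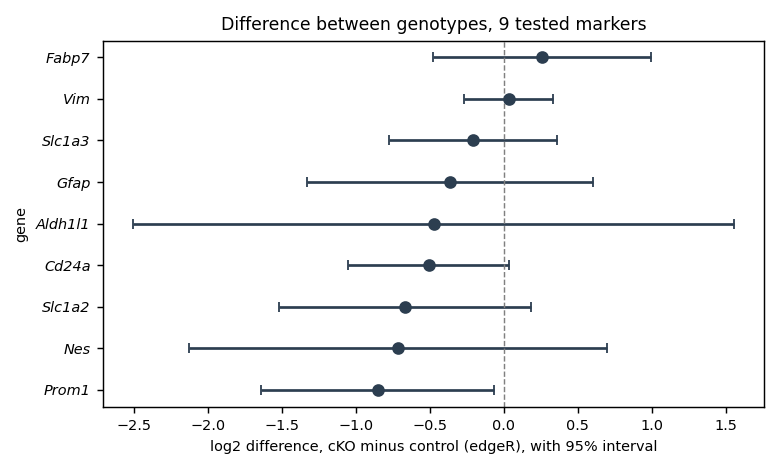
Log2 difference between cKO and control (horizontal axis, edgeR) with its 95% interval for the 9 tested markers, ordered by size. The interval of Prom1, from -1.64 to -0.063, is the only one that leaves out 0 before adjustment, and that of Vim, from -0.27 to 0.33, is the narrowest.

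As a group, 9 of the 10 markers passed the filter on low counts, and the cKO was lower for 7 of these 9 and higher for 2. Their median log2 difference was -0.47, where all 11574 genes tested had a median of 0.0044 with 49.7% lower. edgeR called 0 of the 9 after adjustment, as it did of all genes (0%). At an unadjusted p of 0.05 there was 1, Prom1, against 2.75% of all genes in either direction and 1.31% lower. By DESeq2 and by limma-voom there were 2, Prom1 and Cd24a, both lower. By DESeq2, run without the filter on low counts, 2.78% of 17858 genes were lower at this threshold. By limma-voom it was 2.06% of the 11574 genes. Prom1 was also the only marker whose cKO libraries were all below the controls in CPM, which held for 4.62% of all genes. In TPM, Nes did so too, against 4.50% of all genes. None of the 9 had all cKO libraries above the controls, which held for 4.99% of all genes in CPM and 5.01% in TPM. The summed level of the 10 markers was 1357, 1603 and 1522 TPM in the cKO and 1532, 1676 and 1912 TPM in the control (exact two-sided permutation p = 0.2). Without Cd24a the sums were 1119 ± 110 TPM in the cKO and 1181 ± 254 TPM in the control (mean ± SD, n = 3, exact permutation p = 0.8). The median log2 difference was -0.094 without control 3, with 5 of 9 lower, -0.20 without cKO 1 and -0.58 without control 1.

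The markers did not move together from library to library. Gfap, Slc1a3 and Aldh1l1 were all lowest in control 1, and Gfap and Aldh1l1 highest in control 3. Gfap, Slc1a3 and Slc1a2 had their 2 highest values in controls 2 and 3. Prom1, Nes, Cd24a and Slc1a2 were lowest in cKO 3, the library in which Fabp7 was highest. Vim followed neither pattern.

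**Figure D3:**
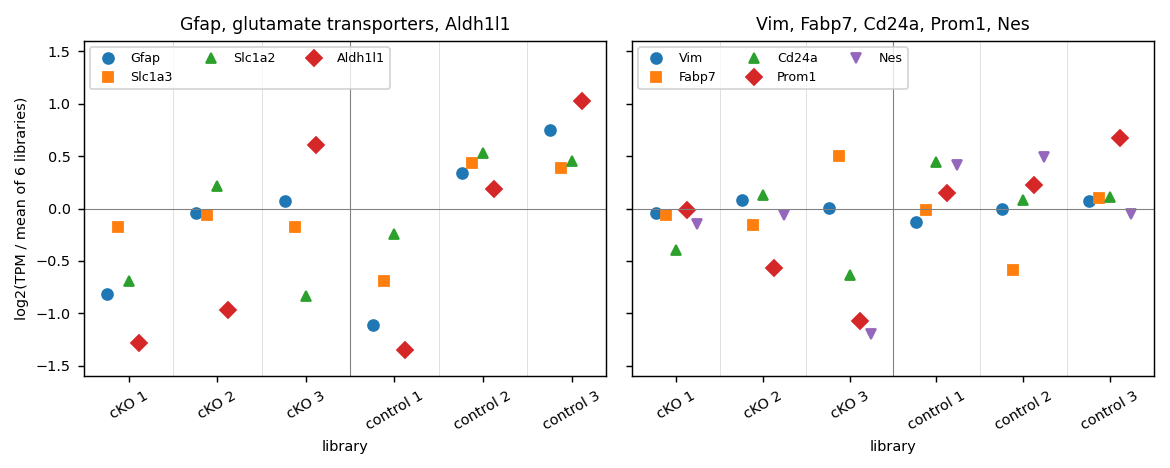
Level of each marker in each library as log2 of its TPM over its mean in the 6 libraries (vertical axis), with Gfap, the glutamate transporters and Aldh1l1 on the left and the other tested markers on the right. In the control 1 library the 4 markers on the left lie below 0 and Cd24a, Nes and Prom1 on the right lie above it, while Vim stays close to 0 throughout.

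The control 1 library stood apart in other marker lists too. Other astrocyte and stem cell genes, without the very abundant Apoe, summed to 4719 TPM in control 1, 6518 in control 2 and 7149 in control 3, and to 5229, 6066 and 5495 TPM in the cKO libraries, so that control 1 was lowest and control 3 highest, as for Gfap. The oligodendrocyte lineage list, mostly Cnp, summed to 94.9 TPM in control 1 and to 201 to 328 TPM elsewhere. The neuron list, mostly Ppp1r1b, summed to 201 TPM in control 1 and to 315 to 438 TPM elsewhere. The summed ependymal list was the reverse, with 30067 TPM in control 1 and 25296 to 26834 TPM elsewhere. Its genes were split, however. Rarres2, Tmem212, Dynlrb2, Pifo, Mia, Meig1 and S100a6 were highest in control 1. Foxj1, Ak7, Rsph1, Spag17 and Zmynd10 were lowest there, with Foxj1 at 3.26 TPM and Rsph1 at 510 TPM, and the remaining genes were neither. The part of these differences in the values of Gfap, Slc1a3 and Aldh1l1 was not tested. Microglial markers summed to 31.1 to 82.8 TPM, mural and fibroblast markers, mostly Acta2 and Tagln, to 326 to 524 TPM with control 1 the highest, and choroid plexus markers to 316 to 952 TPM. The endothelial list summed to at most 3.83 TPM.

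Of the 36 other astrocyte and stem cell genes, 31 were tested, with lower cKO values for 19 and higher for 12 (median log2 difference -0.088), and edgeR called 0. Apoe, the lipid carrier apolipoprotein E, stood at 24274 ± 1932 TPM in the cKO and 23593 ± 1895 TPM in the control, and Sparcl1, a matricellular protein gene of astrocytes, at 929 ± 154 and 1001 ± 364 TPM (mean ± SD of 3 libraries each). Hopx, a homeodomain gene of quiescent stem cells, had the smallest p and was higher in the cKO on average, at 147, 112 and 29.7 TPM against 24.98, 35.3 and 17.9 TPM in the control. The cKO 3 library lay among the controls, and the log2 difference of 1.89 ± 0.66 (SE) did not pass (edgeR unadjusted p = 0.0211, adjusted p = 0.999992). Fgfr3, a growth factor receptor gene of astrocytes that was singled out after its values were seen, stood at 2.95, 2.64 and 2.01 TPM in the cKO and at 7.87, 7.67 and 6.21 TPM in the control. DESeq2 called it (adjusted p = 0.0241) and edgeR did not (log2 difference -1.53 ± 0.95 SE, unadjusted p = 0.148, adjusted p = 0.999992).

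The markers ranked differently by reads and by level per length. The ratio of the estimated count to the TPM of a gene gives the mean length of its counted transcripts, which was scaled on 428 to 476 genes with a single annotated transcript in each library (median error 0.11% to 0.99%). By this measure the median length was 11593 bases for Slc1a2, 5957 for Nes, 4120 for Slc1a3, 3616 for Prom1, 3060 for Aldh1l1, 2639 for Gfap, 2191 for Vim, 1811 for Cd24a and 804 for Fabp7. The Slc1a2 value was within 1% of the transcript Slc1a2-202 in GENCODE M21, 11595 bases long, while the 11 other annotated transcripts were 193 to 2127 bases long. The Gfap value was within 1% of Gfap-201 (2648 bases) and 1.48% from Gfap-202 (2600 bases). Per read, Slc1a2 averaged 77.5 CPM and Fabp7 140 CPM, while per length they stood at 7.68 and 291 TPM. Slc1a3 was the highest of the 10 in CPM (882) and the fourth in TPM.

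**Figure D4:**
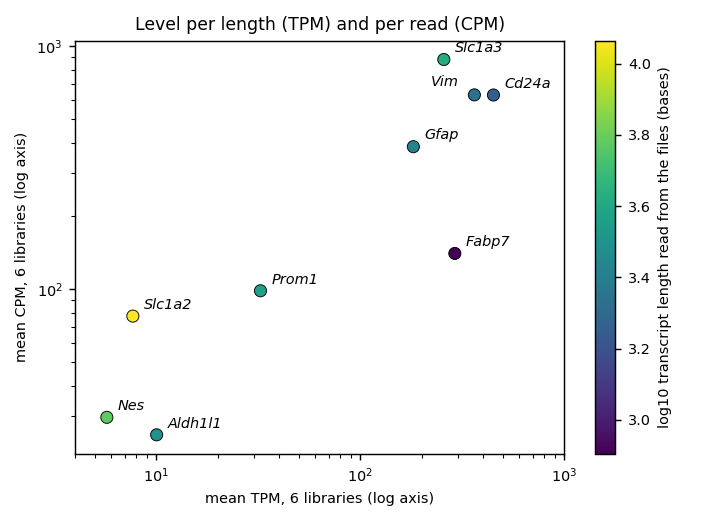
Mean CPM (vertical, log axis) against mean TPM (horizontal, log axis) of the 9 tested markers over 6 libraries, coloured by the transcript length read from the files. The long Slc1a2 (11593 bases) lies to the left of Prom1 at a similar CPM, and the short Fabp7 (804 bases) lies near Slc1a3 in TPM at a far lower CPM.

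The genes most like the 3 most abundant markers by reads were searched among 3348 tested genes whose mean reached 50 CPM and whose symbol is no model number. Likeness was the root mean square difference between profiles of log2 CPM, each centred on its mean over the 6 libraries. The nearest to Slc1a3 were Pea15a (0.10) and Slc2a1 (0.11), where the median over all compared genes was 0.50. The nearest to Vim were Ypel3 (0.042) and Ywhaq (0.045), a distance of the size of Vim's own spread (0.042). The nearest to Cd24a were Zranb2 (0.12) and Cuedc2 (0.12).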

How the data were processed

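The submitters' processing notes name CASAVA 1.8, cutadapt 1.11 and kallisto 0.42.5. Per the file headers, the authors deposited an estimated count and a TPM value for each of 47643 genes in each of 6 libraries, and the sources used here do not give the build, the annotation or how transcripts were summed. Kallisto shares ambiguous reads between similar transcripts by estimate, which makes genes with near copies uncertain.

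Genotype and replicate number were taken from the sample titles. The members and lists were chosen with earlier results of these data known. Coordinates are from GENCODE M21 on GRCm38 (99.1% of gene IDs matched without their version) and promoters from RefSeq on GRCm38.p6, where 9 of 10 markers have a window. Estimated counts were rounded, filtered by filterByExpr (11574 of 19684 genes with a count kept), normalized by TMM and then compared in edgeR 4.0.16 (robust quasi-likelihood test, genotype as the only term) in R 4.3.3, with Benjamini-Hochberg adjustment over all genes tested and a threshold of 0.05. Single values such as sums were given an exact permutation test over the 20 assignments of libraries. Besides the 10 markers and Ccn1, the rule took from each list the 2 most abundant genes by TPM and, outside the cell type lists, the gene with the smallest p (not all are described), and the 2 genes of most similar profile for each of the 3 markers with most CPM. Alternatives were DESeq2 1.42.0, its size factors in edgeR, total counts, other filters, limma-voom (limma 3.58.1), limma on log2(TPM + 1) and log2(TPM + 0.1), a block for replicate number, and leaving out libraries singly. The tests were also run on simulated data. Every gene was given the same dispersion. With changed genes drawn at about the common dispersion of these files, edgeR and limma-voom called none of them after adjustment. DESeq2 called more unchanged than changed genes. At such a dispersion neither the absence of calls nor a DESeq2 call is firm. A lower dispersion was also run and its outcome is not given here. The markers differ in spread, with an SE from 0.13 (Vim) to 0.88 (Aldh1l1), so the simulation cannot say how firm the result of a single marker is.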

Additional observations from a re-analysis of the deposited data

How the results depend on the processing

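Over 10 alternatives the 9 tested markers kept their sign (7 lower, 2 higher) and 0 were called, with Prom1 at -0.90 to -0.84 and the median log2 difference at -0.50 to -0.45. edgeR called 0 of all genes (318 at an unadjusted p of 0.05), limma-voom 0, and DESeq2 200, and the cause was not tested. Without 1 library 0 genes were called, Prom1 ran from -1.17 to -0.64, Ccn1 from -2.50 to -1.97, the median from -0.58 to -0.094, and the number lower from 5 to 8. Leaving out 1 library turned Gfap (-0.70 to 0.011), Aldh1l1 (-1.30 to 0.13) and Fabp7 (-0.010 to 0.41). The difference in summed TPM, cKO minus control, was -212 and ran from -299.8 to -109.8 without 1 library. It was -62.5 without Cd24a.

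Libraries with the same replicate number deviated together very little (r of their deviations 0.0089, 0.027 and 0.013 across genes). Such values from 3 libraries a group cannot decide whether samples were paired, and the labels do not say so. With the replicate number as a block, edgeR called 0 genes, and Prom1 stood at -0.90, the median at -0.47 and Ccn1 at -2.27. Each cKO library correlated best with its own number in the control, but these r were very small and no conclusion on pairing is drawn from them. With 3 libraries a group, a marker such as Aldh1l1 has an interval over 4 log2 units wide.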

Other observations

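Neuroblast genes that did not reach a tested level were uneven between libraries, and they are named here after their values were seen. Tubb3, which encodes a neuronal tubulin, had 297 and 243 counts in controls 1 and 2 and 0 in control 3 and in all 3 cKO libraries. Dcx, which encodes the neuroblast protein doublecortin, had 374 counts in control 1 and at most 4 in any other library. Dlx5 (198 counts) and Stmn2 (171 counts, a tested gene) were also highest in control 1. Other genes of the same list went the other way in control 1. Sox11 was lowest there, at 1.601 TPM against 4.15 to 9.28 TPM elsewhere, and Dlx1, Sp9 and Nrxn3 were at 0 counts. Dlx1 was also at 0 counts in control 3, and Sp9 in control 2. Control 1 was also the library with the highest Cd24a, at 613 TPM, and control 2, with the other Tubb3 signal, had 476 TPM, within the range of the cKO libraries.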
